A study of Mus musculus with 8 samples.

Results

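Oxidative phosphorylation (OXPHOS) is carried out by 5 protein complexes of the inner mitochondrial membrane, whose subunits come from nuclear and from mitochondrial DNA. The genes described here are those that encode the subunits of complexes I to V in the mouse, chosen by symbol among protein-coding genes. The families Nduf (complex I), Sdh (complex II), Uqcr and Cyc1 (complex III), Cox4 to Cox8 (complex IV) and Atp5 (complex V) were used, with the mitochondrially encoded mt-Nd, mt-Cytb, mt-Co and mt-Atp genes, and dedicated assembly factors were left out. This gave 99 of the 55359 gene identifiers in the table, 86 of them nuclear and 13 mitochondrial. Complex I had 42, complex II 4, complex III 10, complex IV 23 and complex V 20. Ndufa4 and Ndufa4l2 were counted with complex IV, where the Ndufa4 protein resides despite its name. The symbol patterns did not take in Ndufab1, the mitochondrial acyl carrier protein that also belongs to complex I.

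The study compared MLO-Y4 cells exposed to an Er:YAG laser with non-irradiated MLO-Y4 cells, 4 RNA-seq libraries each. MLO-Y4 is a mouse line with features of osteocytes, the cells that sit inside bone matrix. The labels give its genotype as wild type, although the line is known to come from a mouse that carried the SV40 large T antigen under the osteocalcin promoter. Both groups had been seeded 72 h before. The exposure lasted 1 min at 6 J/cm2 and 2940 nm, an infrared wavelength that water absorbs strongly, with the emitter 25 cm above a 35-mm dish from which the medium had been taken off, and RNA was collected 6 h later. The labels do not say that the non-irradiated dishes also had their medium removed, so the laser and the handling cannot be told apart. Nor do they state that each library came from its own culture. The p-values therefore describe the spread among these libraries, which may be technical. Libraries are called L5 to L8 (irradiated) and C5 to C8 (non-irradiated), after the numbers in the table, and their totals ran from 43786209 to 51734166 counts. Of the 7 osteocyte markers examined, Pdpn averaged 608 ± 23 CPM in irradiated and 487 ± 13 CPM in non-irradiated cells (CPM, counts scaled to a common library size, SD, n = 4 each). Gja1 averaged 318 and 250, Phex 16.0 and 15.0 and Dmp1 0.33 and 0.11 CPM in the same order. Sost, Mepe and Fgf23 had 0 counts in every library. The osteoblast markers averaged 1140 and 1112 (Col1a1), 53.2 and 45.1 (Runx2), 40.8 and 33.2 (Alpl), 2.47 and 1.45 (Sp7) and 0.46 and 0.38 CPM (Bglap) in irradiated and non-irradiated cells. Among macrophage and osteoclast markers, Ptprc, Adgre1, Acp5 and Calcr had 0 counts in every library and only Csf1r was detected, at 24.6 to 27.5 CPM in irradiated and 13.2 to 15.8 CPM in non-irradiated cells. The muscle markers Myod1, Actn2 and Ckm were also at 0.

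In the respiratory chain, electrons from NADH enter at complex I and electrons from succinate at complex II, and both streams pass through ubiquinone to complex III and through cytochrome c to complex IV, where oxygen is reduced. Complexes I, III and IV pump protons out of the matrix, and complex V, the ATP synthase, lets them flow back through a rotating ring and makes ATP. Mitochondrial DNA encodes a few hydrophobic core subunits of every complex except complex II, and its genes are copied inside the organelle as long transcripts that are cut into separate RNAs. All other subunits are transcribed in the nucleus and imported, so that both genomes supply parts of each shared complex.

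Irradiated and non-irradiated cells differed little in these genes, and the medians of the nuclear and of the mitochondrial members lay on opposite sides of 0, a difference that was not tested. Of the 86 nuclear members 80 passed the filter on low counts and were tested, and 6 of the 80 (7.5%) were lower in irradiated cells: Cox7a2l, Atp5g2, Uqcrh, Atp5h, Atp5s and Atp5j. A gene is called here when its adjusted p is under 0.05 by edgeR's quasi-likelihood test with Benjamini-Hochberg adjustment over all 15164 features tested. Among all those features 6.75% were called lower and 8.22% higher. In this fit the share of nuclear members called lower is therefore close to the background and is not a result about the group. None of the 80 was called higher, and 0 reached an unadjusted p under 0.05 in that direction. Over all 15164 features 2101 had such a p with higher and 2051 with lower values in irradiated cells. Most members are abundant, and among the 8010 features with a mean of at least 20 CPM 9.81% were called lower and 13.6% higher, while of the 76 nuclear members at that level 5 were lower and 0 higher. The count of higher calls among the 80 was also 0 with DESeq2, which called 9.86% of all features higher and 7.92% lower, and with limma-voom. All 13 mitochondrial genes were tested and 0 were called in either direction by edgeR or DESeq2. Limma-voom called mt-Co1 higher, and 2 genes, mt-Co1 and mt-Nd1, had an unadjusted edgeR p under 0.05, both with higher values in irradiated cells. Over all features the changed genes were 54.9% higher and the rest lower, a split that scaling by library totals alone turned to 43.8% higher. With that scaling 6.92% of all features were called higher and 8.87% lower, beside 0 and 11 of the 80 nuclear members.

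The log2 fold changes (log2 ratios of irradiated to non-irradiated cells) of the nuclear members had a median of -0.053 and quartiles of -0.11 and -0.024, against a median of -0.0065 and quartiles of -0.13 and 0.12 over all features tested. Of the 80, 66 lay below 0 (82.5%, against 51.6% of all features). An unadjusted p under 0.05 was reached by 15 of the 80, every one of them below 0. Of all 15164 features 4152 reached it, 2051 of them below 0. The mitochondrial genes had a median of 0.038 with quartiles of 0.016 and 0.066, and 3 of the 13 lay below 0. Changes of any size were bounded for most members. The 95% confidence interval of the fold change stayed within 1.2-fold in both directions for 66 of the 80 nuclear and for 12 of the 13 mitochondrial genes. Among all 15164 features it did so for 6244. At a mean of at least 20 CPM it did so for 5769 of 8010 features and for 66 of 76 nuclear members. The median of the nuclear members moved between -0.10 when L6 and C6 were left out together and -0.025 when the fit carried offsets for each gene's GC content and transcript length. It was -0.032 without C8 and -0.088 without C6. The number of nuclear members below 0 ran from 55 of 80 without C8 to 72 without L6 and C6 together. With the offsets it was 56. In all 21 alternatives the nuclear median stayed below 0 and the mitochondrial median above 0, where it went down to 0.015 with library totals alone.

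**Figure D1:**
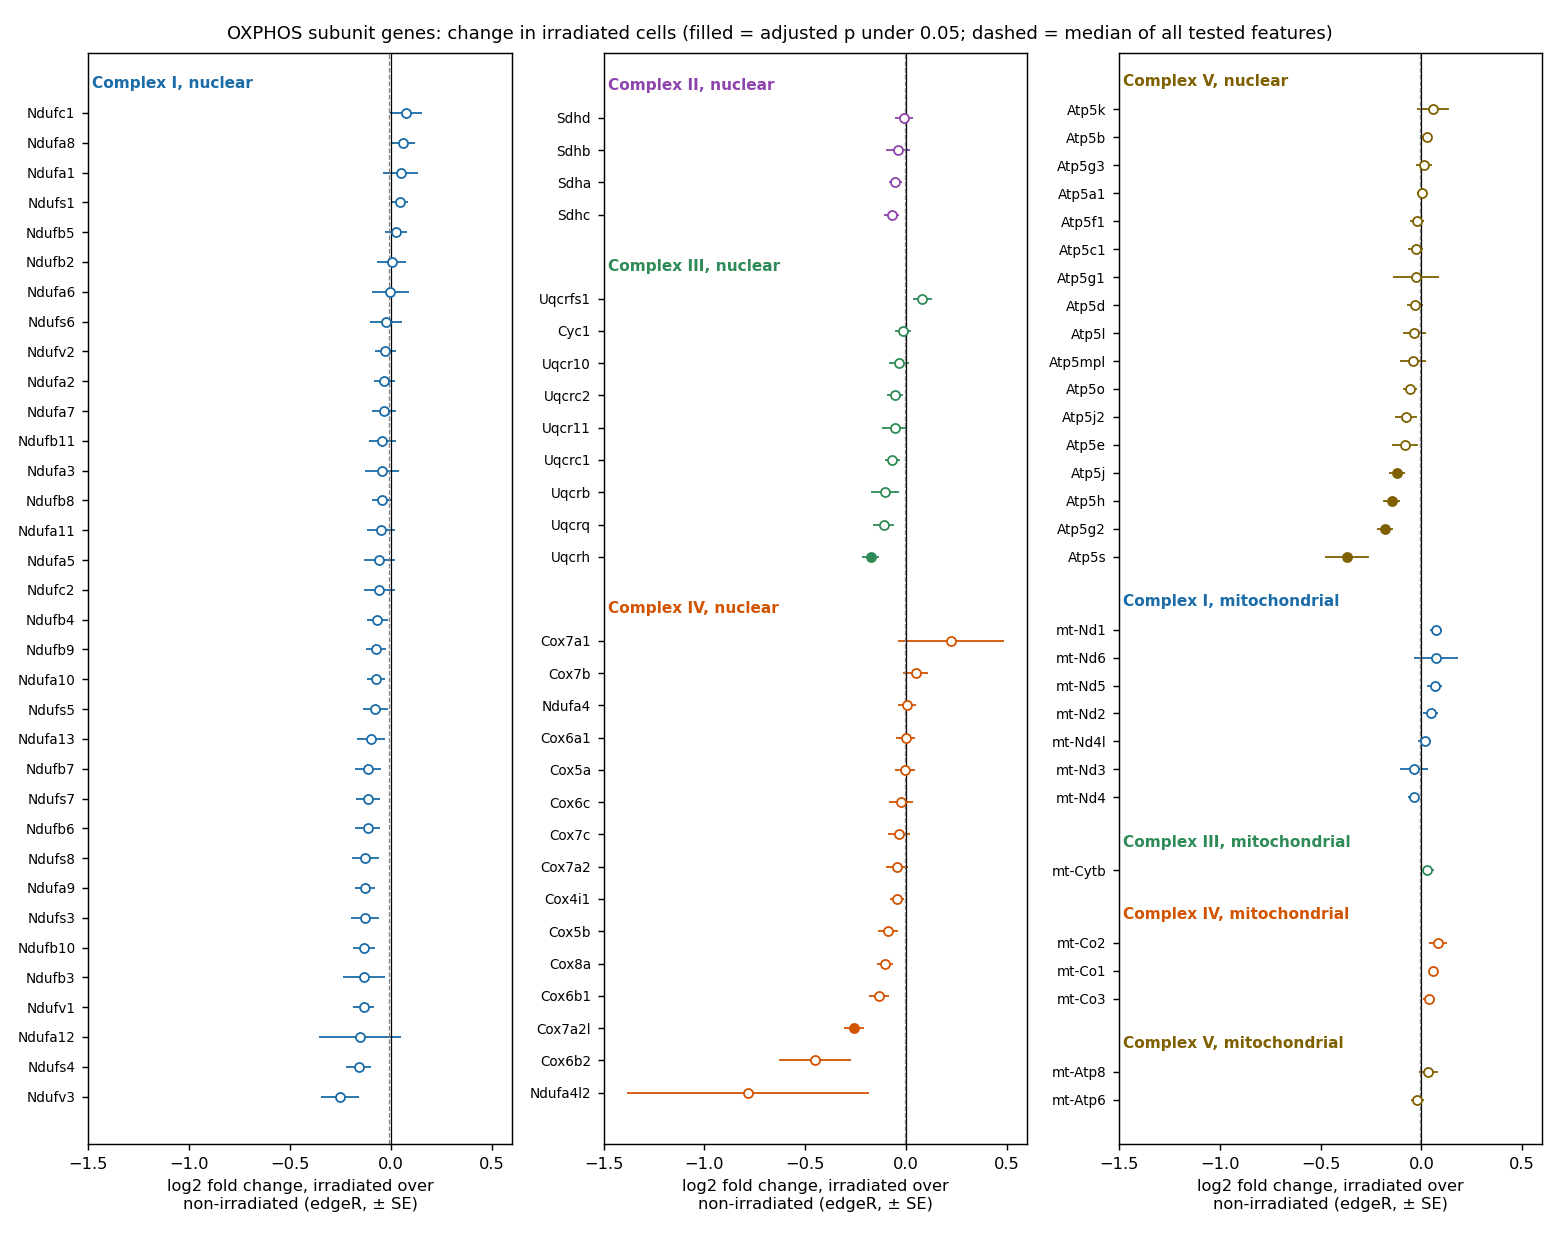
Log2 fold change (irradiated over non-irradiated, horizontal axis, ± SE) of the 93 tested OXPHOS subunit genes except 1 of complex I, by complex and genome, with filled points where the adjusted p was under 0.05 and a dashed line at the median of all tested features. The 6 filled points lie left of 0 in complexes III, IV and V, and 10 of the 13 mitochondrial genes lie right of 0.

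Nuclear OXPHOS transcripts are short, and short transcripts as a class lay below 0 in these libraries. The 80 tested nuclear members had a median transcript length of 760.5 bases, against 2824.5 bases for the 12346 tested nuclear protein-coding genes. Among the 868 tested nuclear protein-coding genes shorter than 1000 bases, a limit chosen after the values were seen, the median log2 ratio was -0.081, with 9.10% called lower and 2.42% called higher. The 52 nuclear members under that length are among the 868, and their median was -0.052, with 4 called lower (7.69%) and 0 called higher. Median GC content was 52.0% for the nuclear members, 50.7% for all tested nuclear protein-coding genes and 37.1% for the mitochondrial genes. The part of length and base composition in the fold changes was not tested beyond the offsets given above.

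Added up, the nuclear members took 7383, 7483, 7212 and 7179 CPM of the library total in L5 to L8, against 7578, 7299, 7744 and 7981 in C5 to C8. The libraries C5, C7 and C8 each lay above every irradiated library, while C6 lay among them, so the groups overlapped. The 13 mitochondrial genes took 15093, 15823, 14873 and 15482 CPM of the library total in L5 to L8, against 15238, 14674, 15043 and 15470 in C5 to C8. These sums overlapped throughout, and the share of a library that they represent was 1.49% to 1.58% in irradiated and 1.47% to 1.55% in non-irradiated cells. For the nuclear members that share was 0.718% to 0.748% in irradiated and 0.730% to 0.798% in non-irradiated cells. Both are sums after poly(A) enrichment, and fewer mitochondria and less RNA in each cannot be told apart in them, nor can fewer cells of a kind and less RNA per cell.

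The ratio of mitochondrial to nuclear counts within a library does not depend on how libraries are scaled. It was 2.04, 2.11, 2.06 and 2.16 in L5 to L8, against 2.01, 2.01, 1.94 and 1.94 in C5 to C8, so that every irradiated library lay above every non-irradiated library. The means were 2.09 ± 0.051 in irradiated and 1.98 ± 0.041 in non-irradiated cells (SD, n = 4 each), a log2 difference of 0.084. The groups stayed apart only narrowly when mt-Co1, which held 46.5% to 48.1% of the mitochondrial counts, was left out. The ratios were then 1.071 to 1.146 in irradiated and 1.032 to 1.067 in non-irradiated cells. By complex, the ratio separated the groups narrowly for complex I (2.171 to 2.400 in irradiated, 2.011 to 2.164 in non-irradiated cells) and also for complex IV (6.87 to 7.25 in irradiated, 6.21 to 6.78 in non-irradiated cells). It overlapped for complex III (1.78 to 1.96 in irradiated, 1.73 to 1.83 in non-irradiated cells) and for complex V (0.386 to 0.423 in irradiated, 0.392 to 0.411 in non-irradiated cells). No test was made on these ratios, since they score genes chosen with earlier results known. The ratios carry no offsets for GC content or length.

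**Figure D2:**
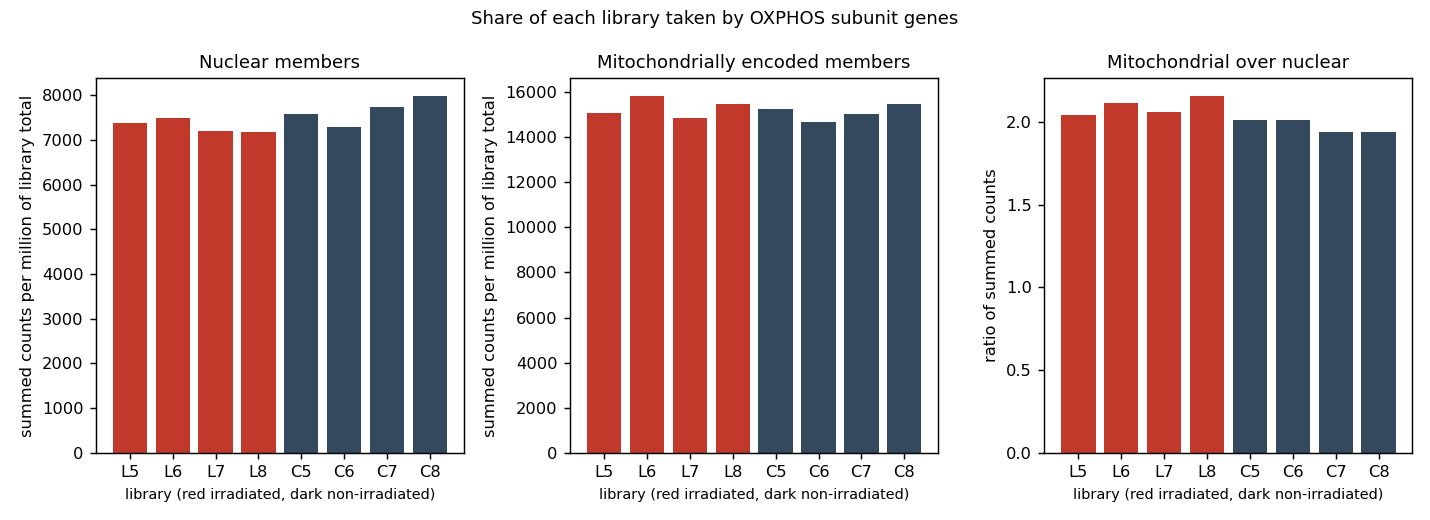
Summed CPM of the library total for the nuclear members (left), the same for the mitochondrially encoded members (middle) and the ratio of mitochondrial to nuclear counts (right) in each library, with irradiated libraries in red and non-irradiated libraries in dark blue and all axes starting at 0. The sums overlap between the groups, while the ratios of the 4 irradiated libraries, 2.04 to 2.16, lie above the 1.94 to 2.01 of the 4 non-irradiated libraries.

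The 6 called members differ in what they do. Cox7a2l, described as a factor that joins complexes III and IV into a respiratory supercomplex, had the lowest adjusted p. Whether the form in these cells does so is not known from these data. Its level was 59.0, 65.3, 67.3 and 60.8 CPM in L5 to L8, against 74.7, 73.9, 74.0 and 79.3 CPM in C5 to C8. All irradiated libraries were below all non-irradiated libraries, and C8 stood highest. The mean was 63.1 ± 3.8 CPM in irradiated and 75.5 ± 2.5 CPM in non-irradiated cells (SD, n = 4 each), and the gene fell by 16.4% (log2 ratio -0.26, SE 0.050, edgeR adjusted p = 0.00114). Its relatives in the Cox7a family gave no call. Cox7a2, the widely expressed form in complex IV, averaged 70.5 ± 4.8 CPM in irradiated and 72.8 ± 4.0 CPM in non-irradiated cells (log2 ratio -0.044, SE 0.054, adjusted p = 0.665).

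Atp5g2 is among the 3 nuclear genes that encode subunit c, whose copies form the rotating ring of the ATP synthase and which all 3 genes deliver as the same mature protein. It had 88.7, 91.2, 93.8 and 88.6 CPM in L5 to L8, against 103, 97.1, 105 and 105 CPM in C5 to C8. The groups did not overlap, and C6 was the lowest of the non-irradiated libraries. The gene fell by 11.7% (log2 ratio -0.18, SE 0.041, adjusted p = 0.00454). Atp5g3 averaged 186 ± 6.8 CPM in irradiated and 184 ± 8.7 CPM in non-irradiated cells (log2 ratio 0.013, SE 0.039, adjusted p = 0.875), and Atp5g1 averaged 49.8 ± 7.0 CPM in irradiated and 50.8 ± 6.3 CPM in non-irradiated cells (log2 ratio -0.028, SE 0.11, adjusted p = 0.914). Per kilobase of transcript, Atp5g2 made up 36.0% to 39.5% of the summed subunit c levels in irradiated and 40.0% to 41.0% in non-irradiated libraries, without overlap. Atp5g3 made up 46.5% to 49.2% in irradiated and 43.0% to 45.9% in non-irradiated libraries, again without overlap on this scale, and Atp5g1 13.5% to 17.5% in irradiated and 13.1% to 17.0% in non-irradiated libraries, with overlap. In each library the shares of the 3 genes add up to the whole, so a lower share of Atp5g2 raises the others together. The Atp5g3 shares are therefore not a result separate from the Atp5g2 call. All shares above use the shortest of the equally ranked transcripts. With the longest transcripts, tried after the values were seen, Atp5g2 made up 30.6% to 32.8% in irradiated and 33.9% to 34.9% in non-irradiated libraries, and Atp5g3 64.8% to 67.1% in irradiated and 62.0% to 63.5% in non-irradiated libraries, both without overlap. By counts with no length, Atp5g2 made up 26.7% to 29.5% in irradiated and 30.1% to 30.9% in non-irradiated libraries, without overlap, while Atp5g3 overlapped, with 55.8% to 58.9% in irradiated and 52.5% to 55.9% in non-irradiated libraries.

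Uqcrh, the hinge protein of complex III that sits beside cytochrome c1, had 69.4, 67.7, 66.2 and 67.3 CPM in L5 to L8, against 77.2, 75.6, 78.8 and 74.1 CPM in C5 to C8. The highest irradiated library was below the lowest non-irradiated library, and both groups were tight. The mean was 67.6 ± 1.4 CPM in irradiated and 76.4 ± 2.1 CPM in non-irradiated cells, and the gene fell by 11.5% (log2 ratio -0.18, SE 0.043, adjusted p = 0.00772).

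Atp5h and Atp5j encode subunit d and coupling factor 6, parts of the peripheral stalk that holds the head of the ATP synthase still while the ring turns. Atp5h had 122, 126, 123 and 123 CPM in L5 to L8, against 145, 127, 137 and 139 CPM in C5 to C8, and fell by 9.77% (log2 ratio -0.15, SE 0.040, adjusted p = 0.0163). The groups did not overlap, but C6 lay within 1 CPM of L6. Atp5j had 140, 140, 128 and 132 CPM in L5 to L8, against 144, 142, 150 and 153 CPM in C5 to C8, and fell by 7.92% (log2 ratio -0.12, SE 0.040, adjusted p = 0.0496). L5 and L6 lay just under C6. The other 2 tested stalk genes gave no call, Atp5f1 (subunit b) with a log2 fold change of -0.023 (SE 0.034, adjusted p = 0.732) and Atp5o (the oligomycin sensitivity protein) with -0.058 (SE 0.034, adjusted p = 0.289).

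Atp5s, also named Dmac2l, encodes factor B, a protein associated with the ATP synthase rather than a part of its core. It was by far the least abundant of the 6, with 7.80, 7.47, 7.30 and 7.69 CPM in L5 to L8, against 10.98, 9.18, 9.26 and 9.69 CPM in C5 to C8. The irradiated libraries lay within 1 CPM of each other and all below the non-irradiated libraries, of which C5 was the highest. The gene fell by 22.6% (log2 ratio -0.37, SE 0.11, adjusted p = 0.0251).

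All 6 were without overlap between the groups, in the lower direction, as were 8 of the 80 tested nuclear members in all (background over all features 8.78%). The other 2 were Ndufs4 and Ndufb10. Cox7a2l and Atp5g2 kept their calls in all 21 alternative settings, Uqcrh in 20 and Atp5h and Atp5s in 17 each. Atp5h lost its call without L5, L7 or C5 (adjusted p up to 0.0892 in those fits), and Atp5s without L6, L7 or C5 (up to 0.0989). Atp5j, at the threshold, was called in only 9 of the 21 settings, and leaving out L5, L7, L8, C5, C7 or C8 each ended its call (up to 0.199). Without C5 or without L7 the count of nuclear members called lower was 3, and without C6 it was 11. In that order 3.75%, 3.75% and 13.75% of the 80 were called lower, against 4.57%, 4.50% and 7.57% of all features.

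**Figure D3:**
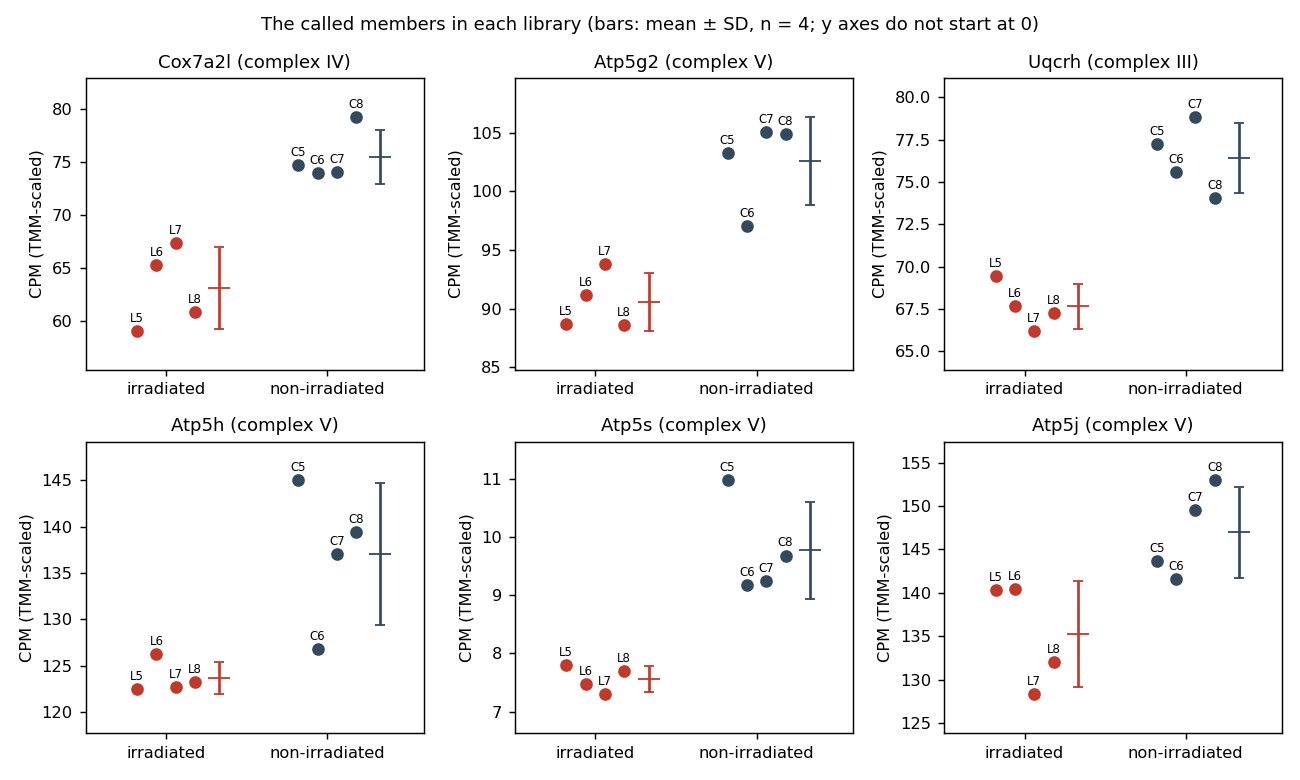
TMM-scaled CPM (vertical axes, not starting at 0) of the 6 members called lower, a point for each library with its name, and the mean ± SD of 4 libraries beside the points. In all 6 panels the irradiated libraries lie below the non-irradiated libraries, with the narrowest gaps for Atp5h (L6 and C6) and Atp5j (L6 and C6).

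Promoters of nuclear OXPHOS genes are known for binding sites of NRF1, of ETS factors such as GABP (also called NRF2 in this setting) and of YY1. The promoters of 5 called members are shown with these motifs, from RefSeq on GRCm38.p6, to compare what the called genes share. Each runs 5′ to 3′ on the gene's strand from 250 bases before the annotated start to 30 bases after it, and capitals mark a match to GCGCATGC (NRF1), CCGGAAG (ETS) or AANATGGC (YY1) on either strand. The Atp5g2 window on chr15:102671018-102671297 (minus strand) holds the NRF1 motif on both strands, as overlapping matches in a single run of capitals. The windows of Uqcrh on chr4:116075041-116075320 and of Atp5h on chr11:115419890-115420169 (both minus strand) each hold the ETS motif close to the start, on the opposite strand. Of the 2 annotated starts of Atp5j, the window at chr16:84834947-84835226 (minus strand), shown here, holds a YY1 and an ETS motif and the other holds none. The Cox7a2l window on chr17:83514304-83514583 (minus strand) holds none of them.
Cox7a2l: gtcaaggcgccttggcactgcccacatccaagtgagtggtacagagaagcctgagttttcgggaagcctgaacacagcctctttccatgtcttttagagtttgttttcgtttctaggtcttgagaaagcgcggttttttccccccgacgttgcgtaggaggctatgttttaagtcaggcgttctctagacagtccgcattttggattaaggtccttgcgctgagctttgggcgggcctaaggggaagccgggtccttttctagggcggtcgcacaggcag
Atp5g2: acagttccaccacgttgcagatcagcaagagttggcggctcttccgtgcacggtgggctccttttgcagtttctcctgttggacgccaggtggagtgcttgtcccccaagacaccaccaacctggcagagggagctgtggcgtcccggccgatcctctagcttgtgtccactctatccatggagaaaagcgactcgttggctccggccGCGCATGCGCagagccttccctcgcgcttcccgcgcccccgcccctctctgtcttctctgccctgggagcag
Uqcrh: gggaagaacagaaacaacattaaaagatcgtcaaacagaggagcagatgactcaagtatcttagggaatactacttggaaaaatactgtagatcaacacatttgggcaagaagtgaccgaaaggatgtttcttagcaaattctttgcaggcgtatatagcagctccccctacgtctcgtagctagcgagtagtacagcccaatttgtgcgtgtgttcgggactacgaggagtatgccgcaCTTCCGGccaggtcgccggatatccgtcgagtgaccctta
Atp5h: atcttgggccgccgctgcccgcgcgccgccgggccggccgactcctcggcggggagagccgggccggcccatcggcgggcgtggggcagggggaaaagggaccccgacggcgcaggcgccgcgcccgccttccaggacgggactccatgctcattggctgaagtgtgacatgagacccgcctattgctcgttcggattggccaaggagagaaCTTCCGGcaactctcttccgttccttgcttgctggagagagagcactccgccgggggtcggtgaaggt
Atp5j: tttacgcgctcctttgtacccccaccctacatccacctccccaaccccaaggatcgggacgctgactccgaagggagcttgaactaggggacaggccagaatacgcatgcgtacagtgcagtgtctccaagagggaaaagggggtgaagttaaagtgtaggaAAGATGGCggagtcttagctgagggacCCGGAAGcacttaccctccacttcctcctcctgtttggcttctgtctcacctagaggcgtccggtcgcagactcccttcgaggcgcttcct
With Atp5s, whose window holds none, 4 of the 6 called members had at least 1 of the motifs.

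Promoter windows were found for 68 of the nuclear members, here taken from 250 bases before to 50 after each start with a gene counted once over its starts. At least 1 motif occurred in 36 of the 68 (52.9%), against 3801 of all 17492 genes with a window (21.7%). The 17492 are protein-coding genes taken whether or not these cells express them, so the comparison is not matched for expression. Whether the excess is particular to OXPHOS genes was not tested. The NRF1 motif occurred in 10 members (14.7%, against 3.94% of all genes), the ETS motif in 16 (23.5%, against 12.9%) and the YY1 motif in 17 (25%, against 7.46%). Among the 6 called members the counts were 1 for NRF1, 3 for ETS and 1 for YY1. A match says that these letters stand in the window, not that a factor was bound.

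Complex I, the entry point for NADH, had 0 calls among its 35 nuclear genes by edgeR, DESeq2 and limma-voom. Over all features edgeR called 6.75% lower and 8.22% higher. Some were called lower in other settings: Ndufa9, Ndufs4 and Ndufv1 with library totals alone, and Ndufa9, Ndufb3, Ndufv1 and Ndufv3 without C6. Ndufv3 was also called lower without L6, and Ndufb3, Ndufv1 and Ndufv3 without both libraries numbered 6. By edgeR 5 of the 35 had an unadjusted p under 0.05, all below 0, beside 2051 of all 15164 features with such a p below 0. The log2 ratios of the 35 had a median of -0.067, and those of the 28 accessory genes, which surround the catalytic core, had a median of -0.057 and a range of -0.25 to 0.075. The lowest p belonged to Ndufs4, an accessory subunit whose loss in mice causes a Leigh-like encephalopathy. It had 31.7, 31.9, 34.03 and 33.2 CPM in L5 to L8, against 35.2, 35.5, 35.7 and 39.8 CPM in C5 to C8. The groups did not overlap, but the difference missed the threshold (log2 ratio -0.16, SE 0.060, adjusted p = 0.0823) and was called only when libraries were scaled by their totals (adjusted p = 0.0443). Ndufb8, the nuclear complex I gene with the highest level per kilobase, averaged 80.6 ± 4.2 CPM in irradiated and 83.1 ± 4.5 CPM in non-irradiated cells, with overlap (log2 ratio -0.044, SE 0.049, adjusted p = 0.633).

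Complex II, which is also the succinate dehydrogenase of the citric acid cycle and the only complex without mitochondrially encoded subunits, had 0 calls among its 4 genes by edgeR, DESeq2 and limma-voom, and no unadjusted p under 0.05. All 4 log2 fold changes lay between -0.071 and -0.010. Sdha, the flavoprotein, had 190, 190, 191 and 180 CPM in L5 to L8, against 200, 194, 199 and 188 CPM in C5 to C8 (log2 ratio -0.053, SE 0.034, adjusted p = 0.351). The groups overlapped because C8 was the lowest of its group. Sdhc, a membrane anchor with the lowest p of the 4, averaged 102 ± 3.2 CPM in irradiated and 108 ± 2.0 CPM in non-irradiated cells (log2 ratio -0.071, SE 0.038, adjusted p = 0.241).

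Complex III, which passes electrons from ubiquinol to cytochrome c, had Uqcrh as its only call among 9 nuclear genes. The median of the 9 was -0.057. Uqcrfs1, the Rieske iron-sulfur protein, was the only nuclear member of the complex above 0 (log2 ratio 0.081, SE 0.045, adjusted p = 0.262), and it is named here after its value was seen. Uqcrq, a small accessory subunit, had the highest level per kilobase among the nuclear genes of the complex with its shortest transcript. With its longest transcript it stood at 63.1 CPM per kilobase in non-irradiated cells, below Uqcr10 at 177. Uqcrq had 85.4, 93.6, 92.6 and 84.2 CPM in L5 to L8, against 86.6, 95.03, 99.7 and 103 CPM in C5 to C8. These values overlapped, with C7 and C8 above the rest (log2 ratio -0.11, SE 0.052, adjusted p = 0.179).

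Complex IV, cytochrome c oxidase, had Cox7a2l as its only call among 15 tested nuclear genes, whose median was -0.044. Cox4i1, the widely expressed form of the subunit that binds ATP, averaged 201 ± 2.7 CPM in irradiated and 207 ± 10 CPM in non-irradiated cells (log2 ratio -0.045, SE 0.036, adjusted p = 0.470). Cox6a1, the most abundant nuclear gene of the complex per kilobase, averaged 220.0 ± 4.7 CPM in irradiated and 220.3 ± 19 CPM in non-irradiated cells (log2 ratio -0.0025, SE 0.049, adjusted p = 0.984). Cox6b1, on the side facing cytochrome c, averaged 90.9 ± 6.4 CPM in irradiated and 99.8 ± 3.9 CPM in non-irradiated cells and was not called (log2 ratio -0.14, SE 0.049, adjusted p = 0.0703). Cox8a averaged 116 ± 2.5 CPM in irradiated and 124 ± 6.7 CPM in non-irradiated cells (log2 ratio -0.10, SE 0.041, adjusted p = 0.0981). Both were called when libraries were scaled by totals, Cox6b1 also without L6 and Cox8a also without C6. Ndufa4 (log2 ratio 0.0047, SE 0.046) and Cox7b (0.047, SE 0.061) gave no call either.

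Complex V had 4 of 17 tested nuclear genes called lower, Atp5g2, Atp5h, Atp5j and Atp5s, beside 6.75% of all features. The count depended on the setting. Atp5g2 was called in all 21 alternatives, Atp5h and Atp5s in 17 each and Atp5j in 9. Only Atp5g2 of the 4 was called without C5, without L7 or with GC and length offsets plus the replicate block. None of the 4 belongs to the catalytic head, and head and other genes were not compared by a test. The head's 5 nuclear genes (alpha, beta, gamma, delta and epsilon subunits) had a median of -0.028 and a range of -0.081 to 0.028. Atp5b, the catalytic beta subunit and the most abundant nuclear member, had 977, 970, 979 and 982 CPM in L5 to L8, against 943, 953, 948 and 990 CPM in C5 to C8. C8 stood above all irradiated libraries and the other 3 non-irradiated libraries below them, and the interval of the log2 fold change ran from -0.026 to 0.081 (estimate 0.028, SE 0.025, adjusted p = 0.545). The 4 membrane accessory genes Atp5j2, Atp5k, Atp5l and Atp5mpl had a median of -0.038 and a range of -0.077 to 0.059.

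The 13 mitochondrial genes are shared between complex I (7), complex III (1), complex IV (3) and complex V (2). The largest contributor, mt-Co1, the catalytic subunit of complex IV, had 7242, 7523, 7228 and 7338 CPM in L5 to L8, against 7105, 6973, 6970 and 7139 CPM in C5 to C8. It was the only mitochondrial gene whose groups did not overlap, in the higher direction (background over all features 9.76%), yet it missed the threshold (log2 ratio 0.057, SE 0.022, adjusted p = 0.0854). It was called higher by limma-voom and with the offsets for GC content and length (lowest adjusted p over all alternatives 0.0090). Mt-Co2, which takes electrons from cytochrome c, had 901, 913, 842 and 922 CPM in L5 to L8, against 831, 767, 879 and 900 CPM in C5 to C8, with overlap (log2 ratio 0.083, SE 0.045, adjusted p = 0.263). Mt-Co3 averaged 511 ± 8.8 CPM in irradiated and 498 ± 18 CPM in non-irradiated cells (log2 ratio 0.038, SE 0.030, adjusted p = 0.463).

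In complex I, mt-Nd1, part of the ubiquinone site, had 819, 845, 804 and 828 CPM in L5 to L8, against 796, 748, 774 and 814 CPM in C5 to C8. Only C8 reached into the irradiated range, and the gene was not called (log2 ratio 0.074, SE 0.030, adjusted p = 0.106) except with the GC and length offsets (adjusted p = 0.0309). The proton-channel subunits mt-Nd2, mt-Nd4 and mt-Nd5 had log2 ratios of 0.047 (SE 0.037), -0.038 (SE 0.028) and 0.066 (SE 0.036), and none was called (adjusted p = 0.468, 0.412 and 0.261). The small subunits mt-Nd3 and mt-Nd4l stood at -0.036 (SE 0.069) and 0.016 (SE 0.033). Mt-Nd6, the only subunit encoded on the light strand, was the noisiest, with 215, 210, 183 and 261 CPM in L5 to L8, against 220, 201, 210 and 195 CPM in C5 to C8. L8 and L7 were its highest and lowest libraries (log2 ratio 0.073, SE 0.11, adjusted p = 0.749). Mt-Cytb of complex III averaged 1462 ± 62 CPM in irradiated and 1433 ± 53 CPM in non-irradiated cells (log2 ratio 0.029, SE 0.032, adjusted p = 0.627). Mt-Atp6, the proton-channel subunit of the ATP synthase, averaged 1107 ± 43 CPM in irradiated and 1123 ± 40 CPM in non-irradiated cells (log2 ratio -0.020, SE 0.032), and mt-Atp8 averaged 166 ± 12 CPM in irradiated and 162 ± 8.0 CPM in non-irradiated cells (0.034, SE 0.048). The genes mt-Atp8 and mt-Atp6, mt-Nd4l and mt-Nd4, and mt-Nd5 and mt-Nd6 overlap or adjoin on the mitochondrial genome, and how shared reads were counted, or whether strand was used, is not given in the sources used here. The ribosomal RNA mt-Rnr2 averaged 136 ± 6.2 CPM in irradiated and 137 ± 4.8 CPM in non-irradiated cells.

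Levels were compared between genes per length, here as CPM per kilobase of an annotated transcript. They come from poly(A)-enriched RNA, and how reads shared by overlapping or adjoining mitochondrial genes were placed is not given. The order of the mitochondrial genes, and their place beside nuclear genes, may therefore not follow the amounts of RNA in the cells. In irradiated cells mt-Co1 stood highest with 4746 ± 88 CPM per kilobase, followed by mt-Atp6 with 1626 ± 62, mt-Co2 with 1308 ± 53 and mt-Cytb with 1278 ± 54 CPM per kilobase (SD, n = 4 each). In non-irradiated cells the same quantity was 4561 ± 57 for mt-Co1, 1649 ± 59 for mt-Atp6, 1235 ± 87 for mt-Co2 and 1252 ± 46 CPM per kilobase for mt-Cytb. Mt-Cytb and mt-Co2 did not differ beyond their spread, and they changed places between the groups. Below them in non-irradiated cells came mt-Nd4, mt-Nd1 and mt-Atp8 between 868 and 795 CPM per kilobase, where mt-Nd1 and mt-Atp8 lay within 1 SD of each other. Next were mt-Co3 at 635 and then mt-Nd5 and mt-Nd4l, within 1 SD of each other at 544 and 531 CPM per kilobase. The lowest were mt-Nd2, mt-Nd6 and mt-Nd3 at 493, 398 and 114 CPM per kilobase.

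Atp5b had the highest level of the nuclear members, at 510 ± 2.8 CPM per kilobase in irradiated and 500 ± 11 CPM per kilobase in non-irradiated cells, close to mt-Nd2, and many nuclear members stood above mt-Nd3. Cox6a1 followed with 385 ± 8.2 CPM per kilobase in irradiated and 386 ± 34 CPM per kilobase in non-irradiated cells, then Cox4i1 with 270 ± 3.7 in irradiated and 278 ± 13 CPM per kilobase in non-irradiated cells. From rank 5 to rank 10 in non-irradiated cells, Uqcrq, Atp5g2, the tested Atp5o gene, Atp5a1, Cox8a and Atp5h stood between 237 and 219 CPM per kilobase, each within 1 SD of the next. Genes of complexes IV and V filled 9 of the 10 highest nuclear ranks, and the highest nuclear gene of complex I, Ndufb8, came at rank 24 with 119 ± 6.2 CPM per kilobase in irradiated and 122 ± 6.6 CPM per kilobase in non-irradiated cells. These values depend on the transcript chosen for the length. With the longest instead of the shortest of the equally ranked transcripts, Uqcrq went to 63.1, Atp5g2 to 140.3, Atp5g1 to 10.8 and Ndufb2 to 10.3 CPM per kilobase in non-irradiated cells, and no other tested member moved by over 1.5 times.

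**Figure D4:**
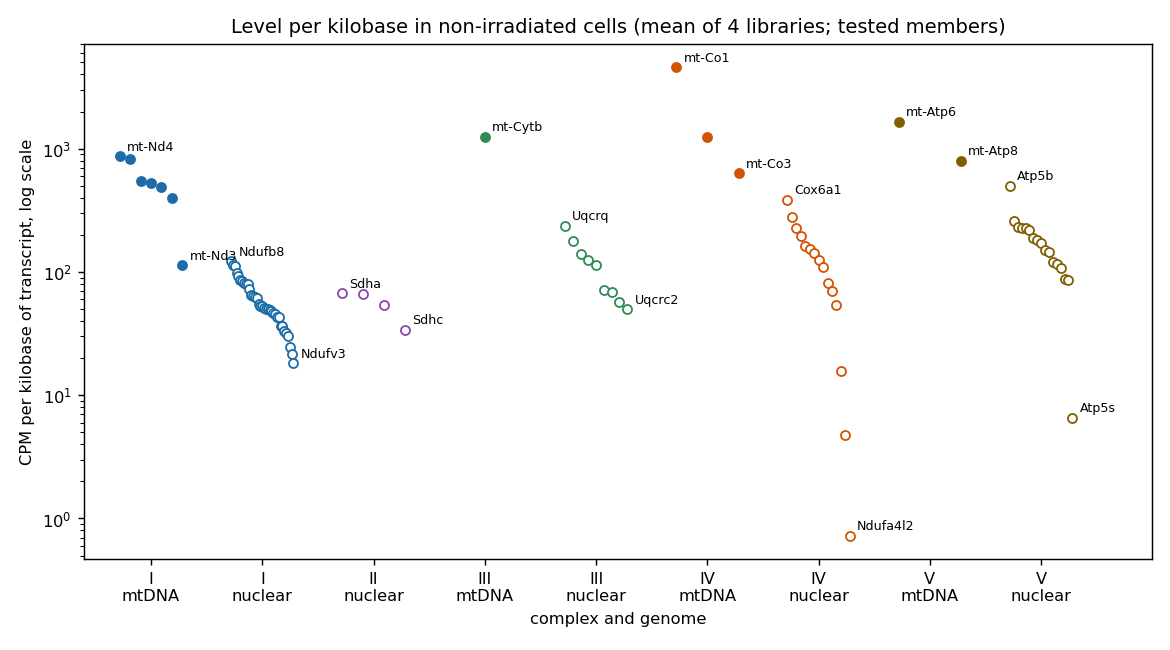
CPM per kilobase of transcript (log scale, vertical axis) in non-irradiated cells for each tested member, ordered within its complex and genome, with filled points for genes on mitochondrial DNA (mtDNA) and open points for nuclear genes. Mt-Co1 stands highest at 4561 CPM per kilobase, mt-Nd3 is the lowest mitochondrial gene at 114, and Ndufa4l2 is the lowest tested member at 0.72.

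Several complex IV subunits exist in tissue-specific or oxygen-dependent forms, and the widely expressed form of each pair had the higher RNA level in MLO-Y4 cells. The lung and hypoxia-linked Cox4i2 had 0.230, 0.0970, 0.185 and 0.0803 CPM in L5 to L8, against 0.129, 0, 0 and 0 CPM in C5 to C8, where 3 counts in the smallest library correspond to 0.0685 CPM. It did not pass the filter and was not tested, and its share of the summed Cox4i1 and Cox4i2 levels per kilobase was at most 0.118% in irradiated and 0.0651% in non-irradiated libraries. The muscle forms Cox6a2 and Cox8b had at most 0.349 and 0.0602 CPM in any library, and the testis-linked Cox7b2 and Cox8c had 0 counts in every library. A further identifier that carries the name Atp5o was also at 0 throughout. Cox7a1, the heart and skeletal muscle form, was detected at 2.18 ± 0.82 CPM in irradiated and 1.87 ± 0.18 CPM in non-irradiated cells (log2 ratio 0.22, SE 0.26, adjusted p = 0.658). Its share of the summed Cox7a1 and Cox7a2 levels per kilobase was 3.19% to 6.63% in irradiated and 3.96% to 4.52% in non-irradiated libraries.

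Cox6b2, described as a testis form in mammals, was the minor form with the largest share. It made up 6.82%, 8.80%, 5.07% and 8.16% of the summed Cox6b1 and Cox6b2 levels per kilobase in L5 to L8, against 9.86%, 9.52%, 7.29% and 8.92% in C5 to C8. Its own level was 5.23, 7.08, 3.49 and 5.62 CPM in L5 to L8, against 7.99, 7.68, 5.91 and 7.76 CPM in C5 to C8. The groups overlapped through L6 and C7, and the gene was not called (log2 ratio -0.45, SE 0.18, adjusted p = 0.0986). Without L6 it passed the threshold, without L7 its log2 ratio was -0.29, and its adjusted p ranged from 0.0274 to 0.277 over the alternatives. Ndufa4l2, induced by low oxygen in other cells, had 0.774, 0.388, 0.162 and 0.241 CPM in L5 to L8, against 0.172, 1.18, 0.377 and 0.975 CPM in C5 to C8, with overlap (log2 ratio -0.78, SE 0.60, adjusted p = 0.446). Its log2 ratio was -0.38 without C6 and -1.34 without L5.

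Genes that build, feed and regulate the complexes were counted from 8 lists, which were written with earlier results of these data known and are set beside the same background of 8.22% higher and 6.75% lower. Assembly factors, which put the complexes together without staying in them, had 0 of 51 tested genes higher by edgeR, DESeq2 and limma-voom (0 at an unadjusted p under 0.05) and 3 lower, and their median log2 ratio was -0.031. The 3 were the complex IV factors Cox20 (-0.65, SE 0.19, adjusted p = 0.0222) and Coa3 (-0.28, SE 0.067, adjusted p = 0.00747) and the complex III factor Lyrm7 (-0.51, SE 0.17, adjusted p = 0.0471). Coa3 had 23.9, 28.4, 27.5 and 25.4 CPM in L5 to L8, against 30.8, 31.1, 33.7 and 31.9 CPM in C5 to C8, without overlap. Cox20 and Lyrm7 were low, at 3.80 ± 0.85 and 3.56 ± 0.67 CPM in irradiated cells, against 5.93 ± 1.2 and 5.07 ± 0.45 CPM in non-irradiated cells. Cox20 lost its call without C7, C8, L6 or L8, and Lyrm7 without any single library except L8.

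Electron carriers and the genes that make ubiquinone and cytochrome c had 1 of 22 tested genes higher and 1 lower, with a median of -0.076. Coq10b, which binds ubiquinone, rose to 37.5 ± 1.3 CPM in irradiated cells, against 31.7 ± 2.2 CPM in non-irradiated cells (log2 ratio 0.24, SE 0.062, adjusted p = 0.0108). Etfb, a part of the flavoprotein that hands electrons from fatty acid oxidation to ubiquinone, fell to 86.4 ± 3.1 CPM in irradiated cells, against 98.4 ± 4.7 CPM in non-irradiated cells (log2 ratio -0.19, SE 0.044, adjusted p = 0.00606). The carriers and uncoupling proteins had 0 of 8 tested genes called by edgeR and limma-voom, 2 at an unadjusted p under 0.05, and 1 by DESeq2 (Ucp2, lower), with a median of -0.019. The adenine nucleotide carrier Slc25a4, with the lowest p, averaged 238 ± 5.9 CPM in irradiated and 253 ± 9.7 CPM in non-irradiated cells (log2 ratio -0.086, SE 0.034, adjusted p = 0.102).

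Genes for the expression of mitochondrial DNA had 3 of 41 higher and 1 lower, with a median of -0.065. Elac2, which cuts the 3′ ends of tRNAs out of mitochondrial transcripts, rose to 79.1 ± 2.6 CPM in irradiated cells, against 65.7 ± 2.6 CPM in non-irradiated cells (log2 ratio 0.27, SE 0.046). Fastkd3, a mitochondrial RNA-binding protein, rose to 20.6 ± 0.92 CPM in irradiated cells, against 16.7 ± 1.6 CPM in non-irradiated cells (0.31, SE 0.082, adjusted p = 0.0134), a call lost without C7. Pnpt1, the polynucleotide phosphorylase that degrades mitochondrial RNA, fell to 113 ± 4.5 CPM in irradiated cells, against 136 ± 7.1 CPM in non-irradiated cells (-0.27, SE 0.043). For Elac2 and Pnpt1 the groups did not overlap, and the highest adjusted p in any alternative was 0.0032 and 0.0023. The remaining call was Grsf1, higher at the threshold, and it is named only to complete the count.

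Regulators of mitochondrial biogenesis had 4 of 18 tested genes higher and 1 lower, with a median of 0.060. Pprc1, a coactivator of the PGC-1 family that works with NRF1, had 137, 130, 138 and 142 CPM in L5 to L8, against 108, 113, 113 and 112 CPM in C5 to C8. Hif1a, the oxygen-regulated factor that lowers mitochondrial respiration in many cells, had 569, 559, 580 and 573 CPM in L5 to L8, against 453, 468, 417 and 414 CPM in C5 to C8. Neither gene's groups overlapped. Pprc1 rose by 0.30 (SE 0.038) and Hif1a by 0.38 (SE 0.036) on the log2 scale, and both kept their calls in all 21 alternatives. Perm1, which PGC-1 and ERR factors induce in muscle, fell to 8.13 ± 0.66 CPM in irradiated cells, against 10.98 ± 1.1 CPM in non-irradiated cells (log2 ratio -0.43, SE 0.11, adjusted p = 0.0101). Myc and Pparg, named only to complete the count, were also called higher.

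Citric acid cycle genes and pyruvate dehydrogenase had 2 of 27 higher and 2 lower, with a median of -0.040. Pdk4, the kinase that shuts pyruvate dehydrogenase down, fell to 5.98 ± 0.37 CPM in irradiated cells, against 8.71 ± 1.3 CPM in non-irradiated cells (log2 ratio -0.54, SE 0.13, adjusted p = 0.00755). Fumarase, Fh1, was called lower (-0.14, SE 0.047, adjusted p = 0.0485) and Idh3a, a subunit of isocitrate dehydrogenase, higher (0.14, SE 0.039, adjusted p = 0.0234). Fh1 kept its call in 8 of 21 alternatives, losing it without any single library except C6 and L5, and Idh3a in 15, losing it without C7, C8, L6 or L8, with library totals alone and in 1 other setting. Dlst, named only to complete the count, was the other gene called higher.

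Import and inner membrane genes had 2 of 40 higher and 1 lower, with a median of -0.023. The chaperonin Hspd1 rose to 447 ± 14 CPM in irradiated cells, against 415 ± 12 CPM in non-irradiated cells, and the prohibitin Phb2 to 286 ± 5.8 CPM in irradiated cells, against 265 ± 7.7 CPM in non-irradiated cells (adjusted p = 0.0221 for Hspd1 and 0.0220 for Phb2). Timm17b, a part of the inner membrane import channel, fell to 28.3 ± 2.2 CPM in irradiated cells, against 32.7 ± 1.8 CPM in non-irradiated cells (adjusted p = 0.0410). Hspd1 lost its call without L5, L8, C5 or C7, Phb2 without L5, L8 or C7, and Timm17b without C6, C7, C8, L5, L7 or L8. With library totals alone neither Hspd1 nor Phb2 was called, and with the GC and length offsets Timm17b was not called.

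The mitochondrial ribosome, which translates the 13 mitochondrial messages, had 2 of 78 subunit genes higher and 6 lower (7.69%), again close to the background of 6.75% lower, with a median of -0.064. Mrpl11 had 19.7, 18.03, 18.95 and 19.2 CPM in L5 to L8, against 25.2, 22.7, 24.0 and 27.0 CPM in C5 to C8, without overlap (log2 ratio -0.38, SE 0.073, adjusted p = 0.000975). Mrpl54 and Mrpl53 were also called lower, Mrpl54 at a log2 ratio of -0.24 (SE 0.071, adjusted p = 0.0251) and Mrpl53 at -0.25 (SE 0.078, adjusted p = 0.0366). Mrpl54 lost its call without C7, C8, L5 or L8, and Mrpl53 with the GC and length offsets and without any single library except C6 and L8.

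**Figure D5:**
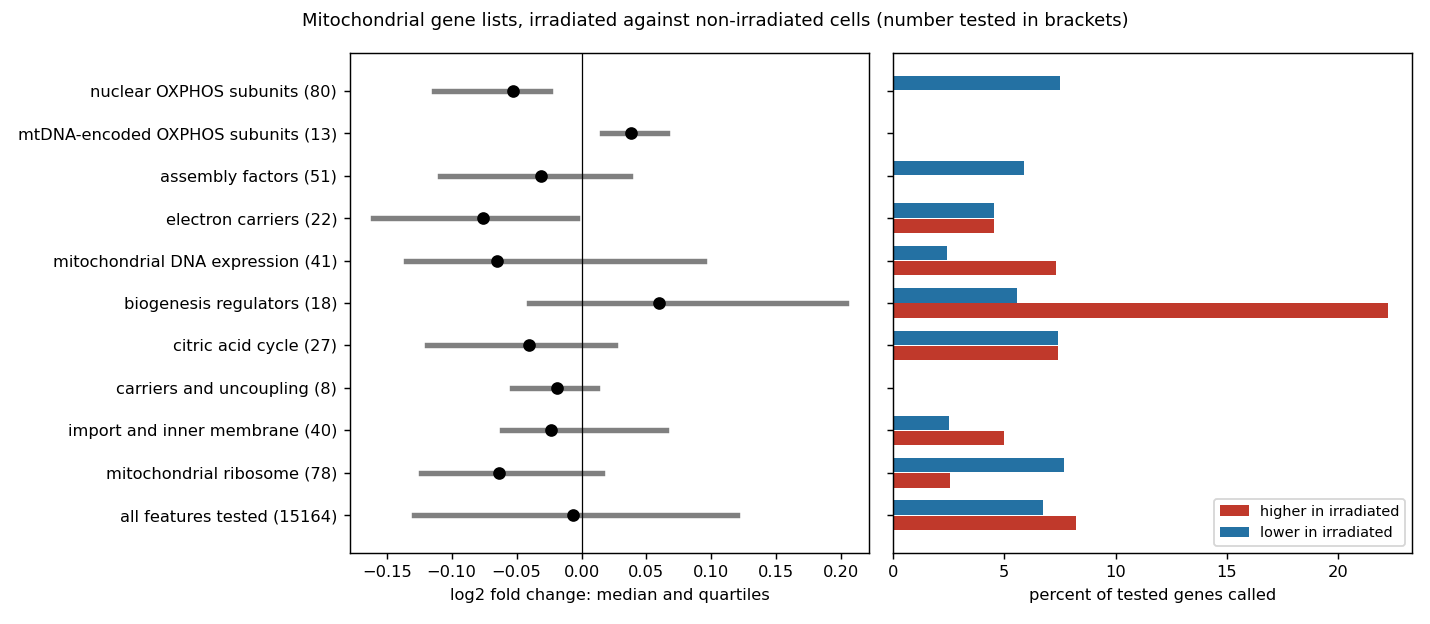
Median and quartiles of the log2 fold change (left) and percent of tested genes called higher or lower in irradiated cells (right) for the nuclear and mitochondrially encoded (mtDNA) OXPHOS subunit genes, 8 lists of other mitochondrial genes and all tested features, with the number tested in brackets. The biogenesis regulators have the highest share called higher (4 of 18), and the nuclear OXPHOS subunits have 7.5% lower and 0 higher beside 6.75% and 8.22% of all features.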

How the data were processed

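Poly(A)-enriched RNA of 4 irradiated and 4 non-irradiated MLO-Y4 samples was sequenced, per the labels' protocols. The submitters' processing notes name Trimmomatic 0.39, FastQC 0.11.9, HISAT2 2.2.1, StringTie 2.1.7, DESeq2 1.32.0 and the build GRCm39. The authors deposited estimated counts per gene, whole numbers without normalization. A count of 4 was more frequent (6096 values) than 3 (4006) or 5 (2428), so a fragment may add about 4 counts and counting error may exceed that of single reads. Whether strand was used, and how reads shared with overlapping genes, paralogs or processed pseudogenes were placed, is not given in the sources used here, so members with such copies are uncertain. Table columns are numbered 5 to 8 and sample titles otherwise, so columns were tied to groups only.

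Symbols, transcript lengths and GC content came from GENCODE M21 (GRCm38, no coordinates used), which named 52083 of 55359 identifiers, holding 99.6% of counts. Features passing filterByExpr (minimum count 10) were fitted with edgeR 4.0.16 in R 4.3.3 (TMM factors 0.989 to 1.01, robust quasi-likelihood test, group as the only term), adjusted by Benjamini-Hochberg over all 15164, and checked on simulated data. CPM are TMM-scaled unless a share of the library total is named. SE is the log2 fold change divided by the square root of F.

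The members and the 8 lists were chosen with earlier results of these data known. For 1 nuclear member of complex I no values of its own are reported here. Named were all mitochondrial members, all called nuclear members, per complex the lowest p and the highest level per kilobase, isoform pairs, and up to 3 called genes of each list. Alternatives were no filter, a mean of 1 CPM, DESeq2 1.42.0, limma-voom (limma 3.58.1), library totals, upper-quartile scaling, scaling on nuclear genes, counts divided by 4, thinning to the smallest library, GC and length offsets, a replicate block, and leaving out each library or both numbered 6.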

Additional observations from a re-analysis of the deposited data

Results flagged for a closer look

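Of 78 groups of 4 libraries examined for a library standing apart, 5 had one by Dixon's test, and chance alone flags about 1 in 20. In non-irradiated cells C8 stood above the other 3 libraries for Cox7a2l (79.3 CPM, others 73.9 to 74.7), Ndufs4 (39.8 CPM, others 35.2 to 35.7) and mt-Atp6 (1183 CPM, others 1098 to 1107). In the same cells C7 stood below the others for Cox6b2 (5.91 CPM, others 7.68 to 7.99). In irradiated cells L8 stood below the others for Sdha (180.0 CPM, others 190.3 to 191.3). Without C8 the Cox7a2l call held, while the log2 fold change of mt-Atp6 turned to 0.0064.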

How the results depend on the processing

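Cox7a2l and Atp5g2 were called lower in all 21 alternatives. The count of nuclear members called lower, 6 as reported, was 11 with library totals alone, 12 without both libraries numbered 6 and 3 with GC and length offsets plus the replicate block (Cox7a2l, Atp5g2 and Cox6b2, while Uqcrh, Atp5h, Atp5s and Atp5j were not called). In the same order these were 13.75%, 15% and 3.75% of the 80, against 8.87%, 7.62% and 5.33% of all features called lower. The count ran from 3 (without C5 or L7) to 11 (without C6) as single libraries were left out. Of all features 4.57% were called lower without C5, 4.50% without L7 and 7.57% without C6, against 3.75%, 3.75% and 13.75% of nuclear members. The count of nuclear members called higher and of mitochondrial members called lower was 0 throughout. Mitochondrial members called higher, 0 as reported, were 1 with limma-voom, 2 with GC and length offsets and 1 with those offsets plus the replicate block. The replicate block alone gave 6 nuclear members lower, with Cox6b2 in place of Atp5j, and of the named list genes Fh1, Hspd1, Idh3a, Lyrm7 and Mrpl53 were not called with it (adjusted p 0.0545 to 0.0932). Libraries with the same number did not vary together (correlations of their deviations from the group means -0.046 to 0.0014). For libraries with different numbers the correlations were -0.022 to 0.033. The labels do not say whether a number marks a shared culture or day, and correlations near 0 cannot decide it, since a small shared effect would not show.

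Some members near 0 that were not called changed sign, and the cause was not tested. With library totals alone the log2 ratio was -0.0094 for Atp5g3, -0.018 for Ndufa4 and -0.0068 for mt-Nd4l, and with upper-quartile scaling -0.0047 for Ndufa4. Without both libraries numbered 6 it was -0.032 for Atp5g3, -0.091 for Cox7a1, -0.043 for Ndufa4 and -0.014 for mt-Cytb. For Cox6a1 it was 0.00096 with a mean of 1 CPM, 0.00022 with DESeq2, 0.0014 with the replicate block, 0.0022 with counts divided by 4, 0.021 with GC and length offsets and 0.022 with those plus the block. Leaving out single libraries gave -0.11 to 0.057 for Atp5g1, -0.012 to 0.036 for Atp5g3, -0.047 to 0.053 for Cox6a1, -0.041 to 0.40 for Cox7a1, -0.021 to 0.041 for Ndufa4, -0.039 to 0.0064 for mt-Atp6, -0.078 to 0.0060 for mt-Nd3 and -0.028 to 0.15 for mt-Nd6. Depth and the count scale left the called members as they were: thinning to the smallest library and counts divided by 4 each gave 6 nuclear members lower.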
